A study of Mus musculus with 36 samples.

Results

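The genes examined here encode the major histocompatibility complex (MHC) class II presentation machinery: H2-Ea, H2-Eb1, H2-Aa, H2-Ab1, H2-DMa, H2-DMb1, H2-DMb2, H2-Oa, H2-Ob and Cd74. These 10 genes were taken by name, out of 18193 genes that a probe set named alone, and they are measured by 22 of the 45037 probe sets for genes. The set was chosen by gene name with the levels of H2-Ea and H2-Eb1 in these 36 spleens known, which part the mice into a high and a low set, so the parting is given as a description without a test. Spleen RNA came from 36 mice of an F2 generation, each on its own Affymetrix array: 18 with arthritis (ART) and 18 without (NON), all labelled as 4 months old. Per the title of the series, the arthritic mice are deficient for the interleukin 1 receptor antagonist, but no genotype is given for any single mouse, and the strains crossed, the sex and the arthritis score are not given in the sources used here. The animal count in the design text does not match its own group sizes, and the groups were taken from the sample titles. Whether the NON mice carry the same deficiency is likewise not given.

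Class II molecules are cell surface pairs of an alpha and a beta chain that show peptides from the endosome to CD4 T cells, and in the spleen they are made mainly by B cells, dendritic cells and macrophages. The mouse has the H2-A pair, from H2-Aa and H2-Ab1, and the H2-E pair, from H2-Ea and H2-Eb1. Cd74, the invariant chain, escorts the new pair to the endosome and fills its groove, H2-DM exchanges the last piece of Cd74 for a peptide, and H2-DO, from H2-Oa and H2-Ob, restrains H2-DM. Their promoters share an X box, bound by the RFX complex, and a Y box that contains CCAAT and is bound by NF-Y, and the coactivator Ciita acts through both. The members other than Cd74 lie together on chromosome 17, in the order H2-Oa, H2-DMa, H2-DMb2, H2-DMb1, H2-Ob, H2-Ab1, H2-Aa, H2-Eb1 and H2-Ea with other genes between them, while Cd74 lies on another chromosome. The reference assembly lists H2-Ea as a transcribed pseudogene.

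RefSeq promoter windows of build GRCm38.p6 run from 250 bases before to 50 bases after a gene's start. None was at hand for H2-Ea and H2-Ab1, and Cd74 was left out of the search. The windows searched were 8, of 7 of the 10 genes, all on chromosome 17. Those shown are of H2-Eb1 and H2-Aa, which had a probe set that parted the mice, of H2-DMb2, whose arthritic and non-arthritic means lay farthest apart beside their spread, of H2-DMb1, its neighbour that shares probe sets with it, and of H2-Ob, which did not part the mice. They are written 5′ to 3′ along the strand of the gene, with matches to the letters of an X box (AG, any 2 bases, AC, any 2 bases, then ATG) and to CCAAT in capitals, on either strand, so that ATTGG is CCAAT of the opposite strand.
H2-Eb1: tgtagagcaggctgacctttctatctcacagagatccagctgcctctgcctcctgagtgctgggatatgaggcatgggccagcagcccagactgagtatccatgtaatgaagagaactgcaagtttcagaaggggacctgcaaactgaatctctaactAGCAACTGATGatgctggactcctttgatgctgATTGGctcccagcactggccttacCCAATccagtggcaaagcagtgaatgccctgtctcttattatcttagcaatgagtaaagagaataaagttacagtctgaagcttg
H2-Aa: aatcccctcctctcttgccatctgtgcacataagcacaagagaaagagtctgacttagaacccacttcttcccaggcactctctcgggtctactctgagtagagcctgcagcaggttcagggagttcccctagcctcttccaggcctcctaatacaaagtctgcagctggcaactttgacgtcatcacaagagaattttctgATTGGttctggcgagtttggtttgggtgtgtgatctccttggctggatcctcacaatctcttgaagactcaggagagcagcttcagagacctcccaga
H2-DMb2: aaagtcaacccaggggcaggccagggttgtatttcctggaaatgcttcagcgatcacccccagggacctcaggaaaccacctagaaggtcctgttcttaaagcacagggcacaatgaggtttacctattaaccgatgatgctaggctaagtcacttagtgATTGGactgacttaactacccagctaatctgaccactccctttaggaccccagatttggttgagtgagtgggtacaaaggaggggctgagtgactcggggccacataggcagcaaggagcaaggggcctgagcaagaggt
H2-DMb1: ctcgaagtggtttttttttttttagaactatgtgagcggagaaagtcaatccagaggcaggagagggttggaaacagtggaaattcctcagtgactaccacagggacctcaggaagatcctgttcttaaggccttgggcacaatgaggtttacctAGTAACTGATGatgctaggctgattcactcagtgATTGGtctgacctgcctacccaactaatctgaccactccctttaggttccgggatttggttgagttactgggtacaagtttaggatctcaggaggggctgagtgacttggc
H2-Ob: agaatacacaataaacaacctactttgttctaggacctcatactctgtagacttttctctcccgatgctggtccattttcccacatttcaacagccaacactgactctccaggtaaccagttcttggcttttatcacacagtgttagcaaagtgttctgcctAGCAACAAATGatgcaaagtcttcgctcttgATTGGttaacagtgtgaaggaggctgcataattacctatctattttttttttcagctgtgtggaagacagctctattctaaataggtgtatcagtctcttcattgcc
The H2-Eb1 window is chr17:34305617-34305916 on the plus strand, that of H2-Aa is chr17:34287774-34288073 on the minus strand, that of H2-DMb2 is chr17:34144999-34145298 on the plus strand, that of H2-DMb1 is chr17:34152941-34153240 on the plus strand, and that of H2-Ob is chr17:34238655-34238954 on the plus strand. H2-Eb1 holds AGCAACTGATG beginning 92 bases before the start, with 22 bases between it and the nearest CCAAT match. H2-DMb1 holds AGTAACTGATG with a spacing of 23 bases, and H2-Ob holds AGCAACAAATG with a spacing of 20 bases. In H2-Oa, not shown, AGTGACAGATG begins 141 bases before the start, and the spacing is wider, at 87 bases. The windows of H2-Aa and H2-DMb2 hold CCAAT and no match to the X box letters, which says only that these letters are not there. Over the genes searched, 4 of 7 held the X box letters and 7 of 7 held CCAAT, in H2-DMa in only 1 of its 2 windows. Of 32851 promoter windows of the same length, 3.09% held the X box letters, 37.4% held CCAAT and 1.42% held both.

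Levels are given as log2(intensity + 16), and they are compared between mice for the same probe set, never between probe sets. The median intensity of an array lay between 110.6 and 183.2. The labels give no batch, and 2 divisions of the arrays were made from the 18 hybridisation control probe sets spiked into each sample: spike-in level clusters A, B and C from their levels, and spike-in profile sets P, Q and R from their relative levels. The profile sets were chosen after the data were seen. Markers of pancreas acinar cells were high in 3 spleens, ART replicate 8 and NON replicates 5 and 6, with mean log2 levels of 13.16, 13.77 and 12.24, against medians of 6.38 in ART and 6.21 in NON spleens. B cell markers, of which 11 of 12 were measured and all 11 passed the filter on low signals, had a mean log2 level of 11.59 to 12.57 in ART and of 11.72 to 12.38 in NON spleens. As whole spleens were used, fewer cells of a type and less RNA per cell cannot be told apart in any value below.

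The genes of H2-E had the widest spread among the members. A probe set was said to part the mice under the following rule. The widest gap between sorted values, with at least 5 mice on each side, had to be at least 1 log2 unit. The means of the sides also had to differ by at least 5 times the root mean square of their SDs. By this rule 32 of the 27022 tested probe sets of the array parted the mice (0.118%), and among the 22 of class II these were 3: 1422892_s_at of H2-Ea, 1417025_at of H2-Eb1 and 1438858_x_at of H2-Aa. All 3 placed the same 10 mice on the low side: ART replicates 3, 11 and 13, and NON replicates 1, 2, 6, 8, 11, 13 and 16.

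H2-Eb1, the beta chain of H2-E, ranged from 10.75 to 11.87 in the 10 low mice and from 13.38 to 14.62 in the 26 high mice. Its gap was 1.51 log2 units, the means of the sides differed 7.68-fold on the log2(intensity + 16) scale, and no mouse lay between. H2-Ea, the alpha chain of H2-E, ranged from 10.28 to 11.83 in the low mice and from 13.59 to 14.67 in the high mice on 1422892_s_at, with a gap of 1.76. The probe set 1438858_x_at of H2-Aa, the alpha chain of H2-A, ranged from 10.59 to 12.19 in the low mice and from 13.80 to 14.86 in the high mice, with a gap of 1.62. The dimmest H2-Eb1 intensity was 1709. In the order of H2-Eb1 levels the sets are plainly apart, and low mice of both groups are mixed.

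**Figure D1:**
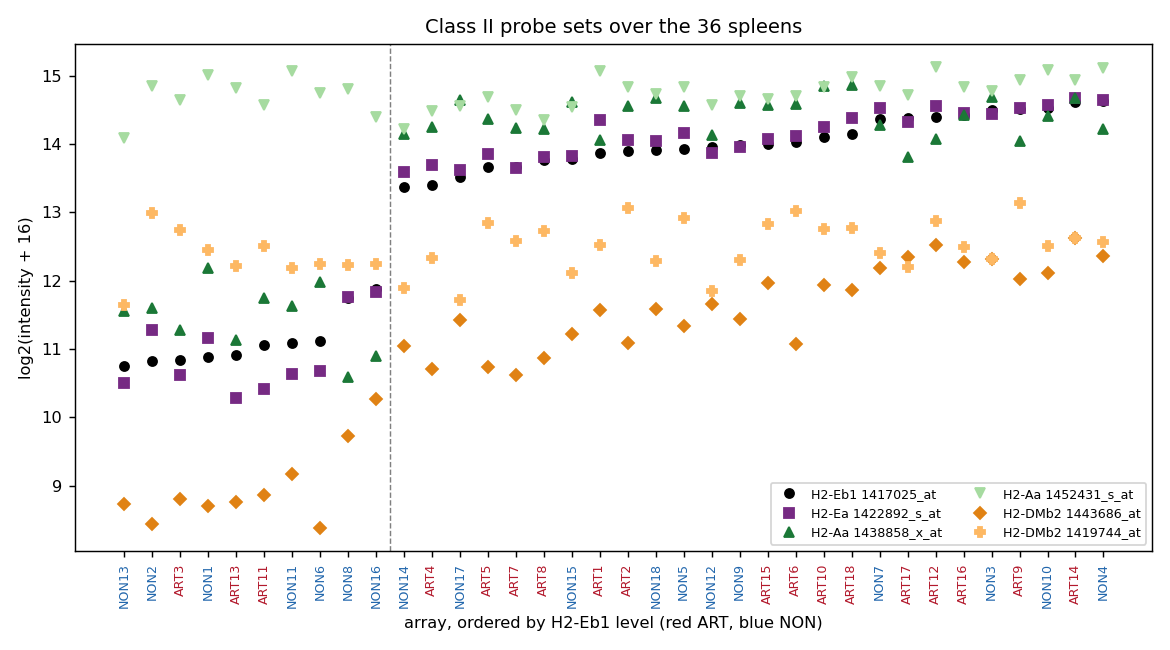
Levels of 6 class II probe sets, as log2(intensity + 16) on the vertical axis, in each of the 36 spleens along the horizontal axis, ordered by the H2-Eb1 level, with ART names in red and NON names in blue. Left of the dashed line are the 10 mice low for H2-Eb1, at most at 11.87, and right of it the 26 mice from 13.38 upward. H2-Ea, 1438858_x_at of H2-Aa and 1443686_at of H2-DMb2 follow it, while the brightest probe sets of H2-Aa and H2-DMb2 do not.

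Just outside the rule were 3 further probe sets. A second H2-Ea probe set, 1422891_at, kept the same 10 mice at 10.88 to 11.88 and the others at 12.65 to 14.13, a gap of 0.78. On 1443686_at of H2-DMb2, a beta chain of H2-DM, the widest gap was 0.55 and set 8 mice apart, and the 10 low mice reached up to 10.26 while the lowest of the 26 others was at 10.62. On 1443687_x_at of H2-DMb2 the 10 mice reached 10.89 and the lowest of the others 10.90. Thus on 6 of the 22 probe sets all 10 low mice lay below all 26 high mice, and on the remaining 16 the sets overlapped.

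Within the low set NON replicates 8 and 16 differed from the other 8 mice, a pattern chosen after the values were seen. They had the highest low-side levels of H2-Eb1, 11.75 and 11.87, against 10.75 to 11.12 in the other 8. They were also the highest of the low set on 1422892_s_at of H2-Ea, at 11.75 and 11.83, and for 1443686_at of H2-DMb2, at 9.73 and 10.26. On the other bright H2-Ea probe set, 1422891_at, they were at 11.51 and 11.73, with NON replicate 1 the highest at 11.88. On 1438858_x_at of H2-Aa they were instead the lowest of all 36 mice, at 10.59 and 10.89. The low set thus held mice with different levels on these probe sets. On the brightest H2-Aa probe set, 1452431_s_at, NON replicates 8 and 16 were at 14.81 and 14.40, inside the low set's range of 14.08 to 15.07.

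Other probe sets of the same genes did not part the mice. The brightest H2-Aa probe set, 1452431_s_at, lay at 14.08 to 15.07 in the low mice, and its correlation with H2-Eb1 over all 36 arrays was 0.23, against 0.92 for 1438858_x_at and 0.73 for 1435290_x_at, each of them a description since these values fall in sets. The brightest H2-DMb2 probe set, 1419744_at, correlated with H2-Eb1 at 0.26, against 0.97 and 0.94 for 1443686_at and 1443687_x_at. The suffix x in a probe set's name marks probes that also match other transcripts, and s marks probes shared by a family. The third H2-Ea probe set, 1426202_at, was dim, with a mean of 5.76, and was left out by the filter on low signals, which the other 21 of 22 passed. H2-DMb1 has no probe set of its own here, only 1418638_at and 1449580_s_at, which also name H2-DMb2, and 1422201_at names both H2-Ob and Gm20506, an RNA gene beside it. The first shared probe set correlated with H2-Eb1 at 0.81 and the second at 0.34. By SD over the 36 arrays, the 3 probe sets that parted the mice stood at percentiles 99.7 to 99.8 of all tested probe sets, while the brightest probe sets of H2-Aa, H2-Ab1, H2-DMa, H2-DMb2, H2-Oa, H2-Ob and Cd74 stood at percentiles 22.3 to 53.1.

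The low set held 10 of 36 mice, or 27.8% (exact binomial 95% interval 14.2 to 45.2%, counting error only). It held 3 of 18 ART mice (16.7%, 3.58 to 41.4%) and 7 of 18 NON mice (38.9%, 17.3 to 64.3%), and the intervals overlap. By spike-in profile it held 4 of 13 arrays in P, 3 of 16 in Q and 3 of 7 in R, and by spike-in level 2 of 9 in A, 7 of 19 in B and 1 of 8 in C. Low arrays were thus present in every division.

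Across the array, 7 of the 32 probe sets that parted the mice did so between exactly these mice, all with the low level in the same 10, and all 7 name a gene on chromosome 17. Besides the 3 of class II they were 1 of D17H6S56E-5, whose gap was 1.56, and 3 of H2-D1 with the suffix x, a class I heavy chain that presents peptides to CD8 T cells, with gaps of 2.79, 3.03 and 3.17. The brightest H2-D1 probe set did not part the mice, and its r with H2-Eb1 was -0.47. The 6 genes outside the set whose level was most like that of H2-Eb1, by Pearson's r over the 36 arrays among 12427 genes, were the mismatch repair family member Msh5 (0.96), Sapcd1 (0.95), D17H6S56E-5 (0.94), the valyl-tRNA synthetase Vars (0.88), the Notch receptor Notch4 (0.79) and H2-Ke6 (0.69). The 3 least like it were the glyoxalase Glo1 (-0.70), Vps52 (-0.69) and the dynein heavy chain Dnah8 (-0.66). All 9 genes are on chromosome 17. H2-Eb2, which lies between H2-Eb1 and H2-Ea, had r = -0.60. These values describe samples that fall into sets, so no p is given.

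Arthritic and non-arthritic spleens were compared with limma over all 27022 tested probe sets, with Benjamini-Hochberg adjustment over all of them and a threshold of 0.05. No class II probe set passed (0 of 21 tested, against 13 of 27022, or 0.0481%, over the array, all 13 higher in ART). An unadjusted p under 0.05 was found for 4 of the 21 (19.0%), against 15.7% of all tested probe sets. Of the 21 differences, 18 were above 0 and 3 below, with a median of 0.25. Over all 27022 tested probe sets 13752 were above 0 and 13270 below, with a median of 0.003. Several of the 21 measure the same gene or follow the H2-Eb1 sets, so they are not independent. Taking the brightest single-gene probe set of each of 9 genes, 8 differences were above 0 and the median was 0.04.

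**Figure D2:**
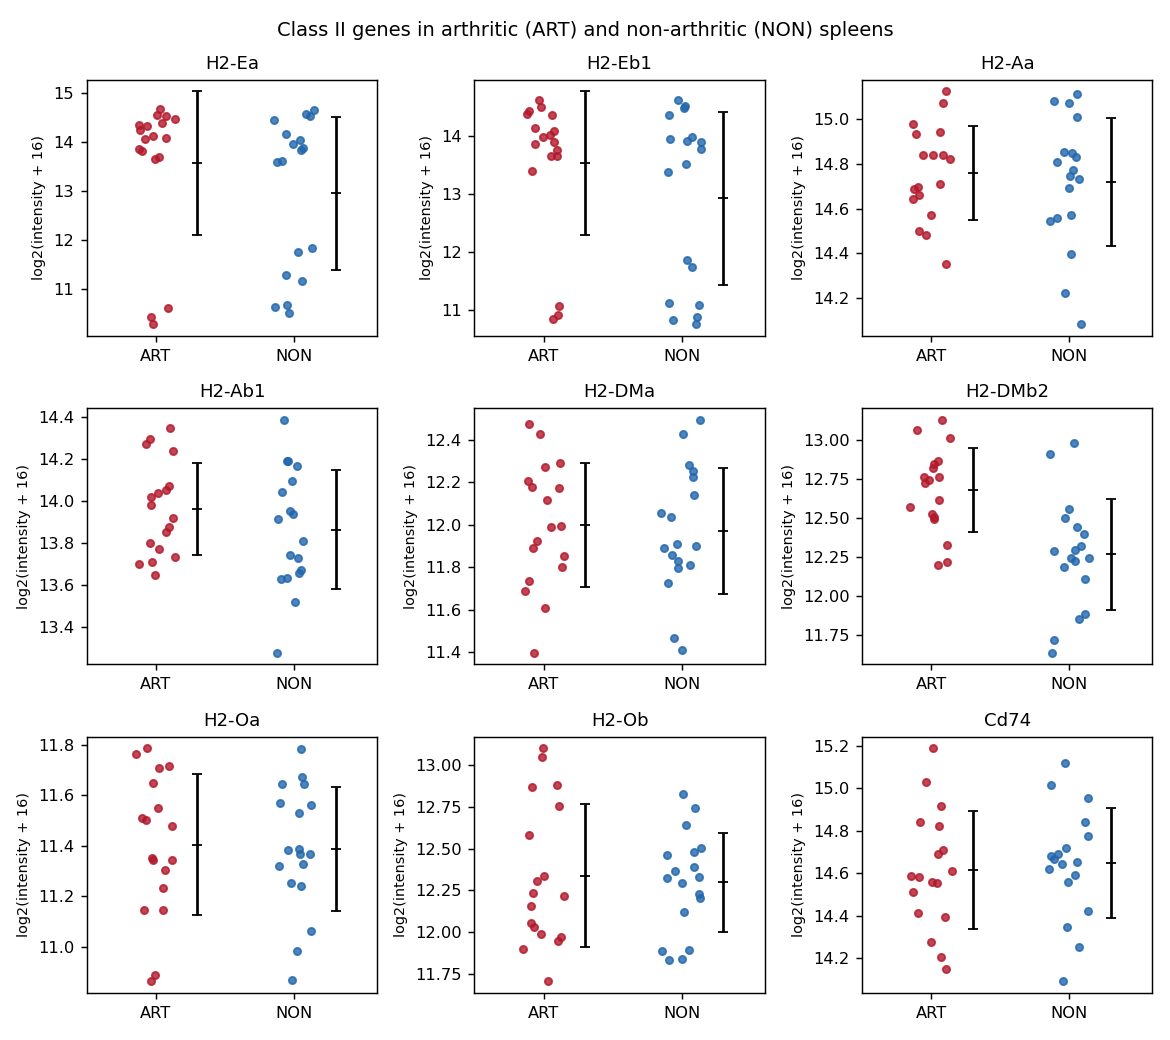
Levels of the brightest single-gene probe set of 9 class II genes, as log2(intensity + 16) on the vertical axis of each panel, in 18 ART (red) and 18 NON (blue) spleens, with 1 point per mouse and the mean and SD beside them. H2-Ea and H2-Eb1 fall into 2 clouds in both groups, with 3 ART and 7 NON mice in the lower one, and H2-DMb2 is the panel whose ART and NON means, 12.68 and 12.27, are farthest apart beside their SDs.

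For H2-E the groups covered nearly the same range. H2-Eb1 had a lowest, median and highest level of 10.84, 13.95 and 14.62 in ART spleens, against 10.75, 13.65 and 14.62 in NON spleens. Its difference was 0.61 (SE 0.43, limma adjusted p = 0.485). H2-Ea had 10.28, 14.09 and 14.67 in ART spleens, against 10.50, 13.72 and 14.65 in NON spleens, and its difference was also 0.61 (SE 0.47, limma adjusted p = 0.533). H2-Eb1 and H2-Ea were bimodal in both groups. Their difference in means changed direction between spike-in profile sets: for H2-Eb1 it was 1.83 in P, 1.03 in Q and -1.26 in R, where R holds 3 ART and 4 NON arrays. Between spike-in level clusters it did not change direction. In A, B and C it was 1.77, 0.26 and 0.53 for H2-Eb1 and 1.79, 0.19 and 0.66 for H2-Ea. The number of low arrays in each group moves with these values, and its part in them was not tested.

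For H2-A, the brightest probe set of H2-Aa had a lowest, median and highest level of 14.35, 14.77 and 15.13 in ART spleens, against 14.08, 14.76 and 15.11 in NON spleens, with a difference of 0.04 (SE 0.08, limma adjusted p = 0.837). The beta chain H2-Ab1 had 13.65, 13.95 and 14.35 in ART spleens, against 13.28, 13.86 and 14.39 in NON spleens, with a difference of 0.10 (SE 0.08, limma adjusted p = 0.569). The groups overlapped over almost their whole range for both genes. The other 2 probe sets of H2-Ab1 gave 0.28 (SE 0.11, limma adjusted p = 0.201) and, on 1451721_a_at, 0.29 (SE 0.09, limma adjusted p = 0.128), where 16 of 18 ART spleens lay above the NON median. Within spike-in profile sets the difference of 1451721_a_at was -0.02 in P, 0.51 in Q and 0.18 in R, and within spike-in level clusters 0.45 in A, 0.17 in B and 0.45 in C. Of the other H2-Aa probe sets, 1438858_x_at differed by 0.57 (SE 0.43), 1435290_x_at by 0.11 and the dim 1443783_x_at by -0.11.

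H2-DM, the peptide exchanger, had the members with the smallest p. H2-DMb2 had a lowest, median and highest level of 12.20, 12.73 and 13.13 in ART spleens, against 11.64, 12.27 and 12.99 in NON spleens, and 16 of 18 ART spleens lay above the NON median. It averaged 12.68 ± 0.27 in ART and 12.27 ± 0.36 in NON spleens (SD, n = 18 each), a difference of 0.41 (SE 0.10) or 1.33-fold that did not pass (limma adjusted p = 0.0857). The ranges overlapped. H2-DMb2 passed at 0.45 without NON replicate 2 (limma adjusted p = 0.0259) and without NON replicate 5 (limma adjusted p = 0.0380). It also passed without the 3 spleens with pancreas markers, at 0.45 (limma adjusted p = 0.0419). With the replicate number as a block, though nothing in the labels pairs samples of the same number, it passed at 0.41 (limma adjusted p = 0.0190). In these settings 389, 250, 236 and 369 of all 27022 tested probe sets passed, in that order, against 13 in the main fit. H2-DMb2 did not pass with any other single array left out or in any other setting of the fit.

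The H2-DMb2 difference was 0.13 in spike-in profile set P, 0.47 in Q and 0.32 in R, and 0.35, 0.40 and 0.59 in spike-in level clusters A, B and C. In Q the 6 ART spleens averaged 12.61 ± 0.23 and the 10 NON spleens 12.14 ± 0.30 (SD), and in P the 9 ART spleens averaged 12.77 ± 0.27 and the 4 NON spleens 12.65 ± 0.36. With the profile set as a block the difference was 0.32 (limma adjusted p = 0.193). The probe set 1449580_s_at, shared with H2-DMb1, differed by 0.37 (SE 0.10, limma adjusted p = 0.0858), with 17 of 18 ART spleens above the NON median, and correlated with 1419744_at at 0.92, so the pair is not independent. The other shared one, 1418638_at, differed by 0.25 (SE 0.15, limma adjusted p = 0.417), and 1443686_at and 1443687_x_at, which follow the H2-Eb1 sets, by 0.48 (SE 0.42) and 0.19 (SE 0.37). H2-DMa, the alpha chain, had a lowest, median and highest level of 11.40, 11.99 and 12.48 in ART spleens, against 11.41, 11.90 and 12.49 in NON spleens, with a difference of 0.03 (SE 0.10, limma adjusted p = 0.913).

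**Figure D3:**
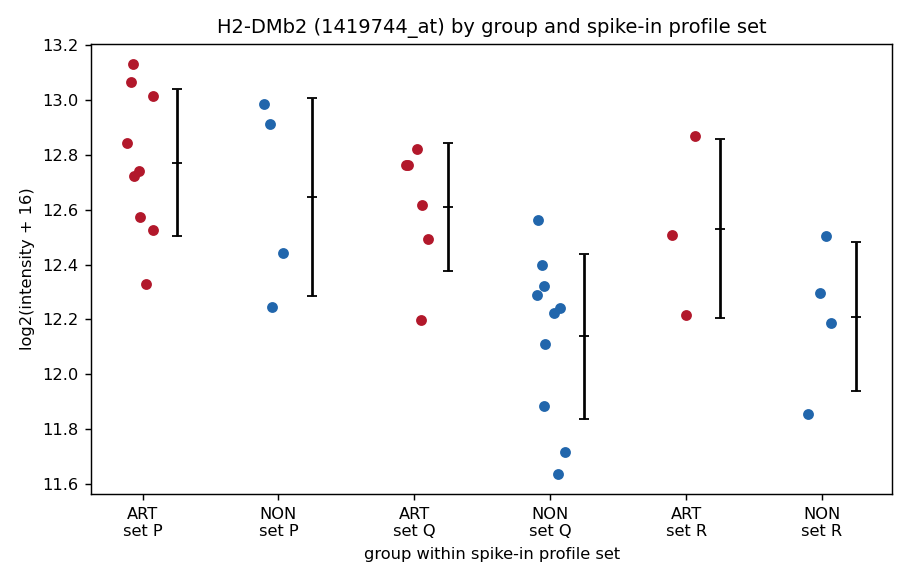
H2-DMb2 level (probe set 1419744_at) as log2(intensity + 16) in ART (red) and NON (blue) spleens within each spike-in profile set, with 1 point per mouse and the mean and SD beside them. The ART mean is above the NON mean in each set, by 0.13 in P, 0.47 in Q and 0.32 in R.

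H2-DO and Cd74 differed by less than their spread. H2-Oa averaged 11.40 ± 0.28 in ART and 11.39 ± 0.25 in NON spleens (SD, n = 18 each), 0.02 apart (SE 0.09, limma adjusted p = 0.945). H2-Ob averaged 12.34 ± 0.43 in ART and 12.30 ± 0.30 in NON spleens (SD, n = 18 each), 0.04 apart (SE 0.12, limma adjusted p = 0.897), and the probe set shared with Gm20506 differed by 0.33 (SE 0.20, limma adjusted p = 0.425). Cd74 had a lowest, median and highest level of 14.15, 14.58 and 15.19 in ART spleens, against 14.09, 14.66 and 15.12 in NON spleens, with a difference of -0.03 (SE 0.09, limma adjusted p = 0.881). It was the only one of the 9 brightest probe sets with a difference below 0. With the B cell marker mean as a covariate, the differences of H2-Aa, H2-DMa, H2-Oa and H2-Ob lay below 0 as well, at -0.02 to -0.06.

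**Figure D4:**
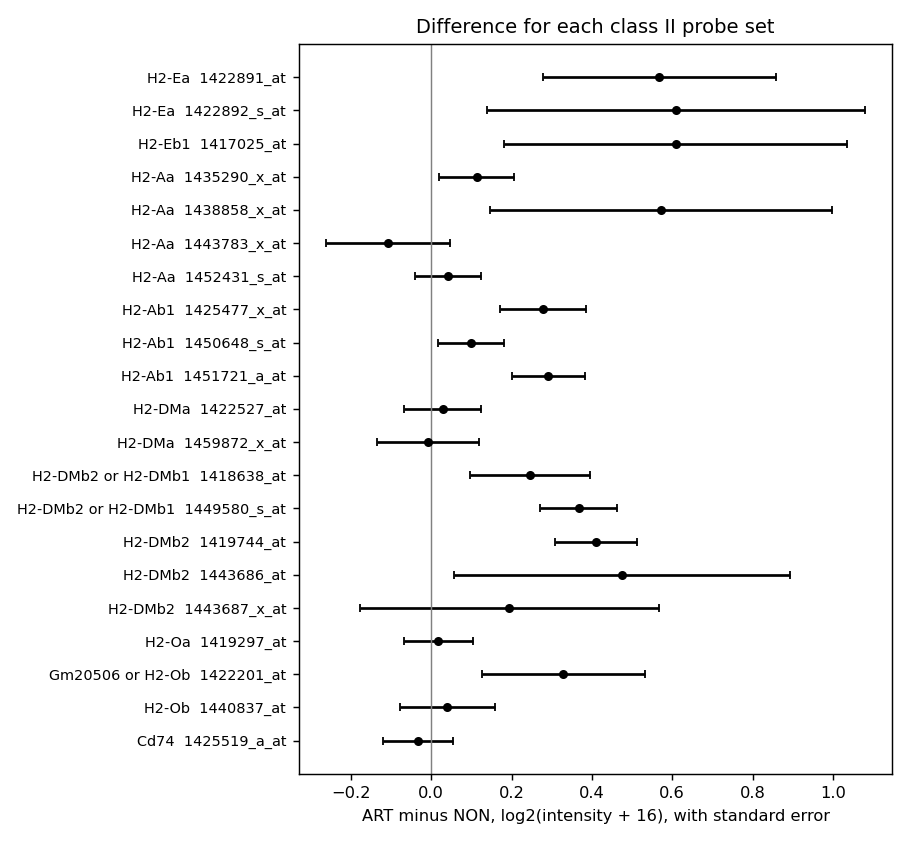
ART minus NON difference in log2(intensity + 16), with its standard error from limma, for the 21 class II probe sets tested. The bars are long for the probe sets that follow the H2-Eb1 sets, such as 0.61 with an SE of 0.43 for H2-Eb1, and short for the rest, among which H2-DMb2 (0.41, SE 0.10) lies farthest from 0.

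Genes that act with class II were followed in 4 lists, and limma called 0 members in each at an adjusted p under 0.05. Of 10 regulators of class II transcription, 6 differences were above 0 and 4 below, with a median of 0.01. The 4 with the smallest p were the myeloid and B cell factor Spi1 (0.26, adjusted p = 0.121), the NF-Y subunit Nfyc (-0.20, adjusted p = 0.131), Creb1, which binds the same promoters (-0.26, adjusted p = 0.242), and the RFX subunit Rfxap (0.18, adjusted p = 0.257). Of 12 genes of processing and turnover, 9 were above 0, with a median of 0.11. They were led by the cathepsin Ctsz (0.29, SE 0.08, adjusted p = 0.0954), by Marchf1, which ubiquitinates class II for turnover (0.31, adjusted p = 0.156), by the protease inhibitor Cst3 (0.21, adjusted p = 0.201) and by the cathepsin Ctsh (0.16, adjusted p = 0.333).

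Ctsz averaged 13.77 ± 0.14 in ART and 13.49 ± 0.31 in NON spleens (SD, n = 18 each). Of 13 genes of class I presentation, 12 were above 0, with a median of 0.13, and the smallest p belonged to the chaperone Pdia3 (0.25, limma adjusted p = 0.124), the peptide trimmer Erap1 (0.14, adjusted p = 0.232) and the immunoproteasome subunits Psmb9 (0.19, adjusted p = 0.331) and Psmb8 (0.14, adjusted p = 0.332). Of 6 costimulators and class II ligands, 4 were above 0, with a median of 0.14. Among them were Cd86 (0.22, limma adjusted p = 0.128) and Cd40 (0.29, adjusted p = 0.180), costimulators of antigen presenting cells, Cd4, the T cell coreceptor that binds class II (-0.29, adjusted p = 0.272), and Icosl (0.21, adjusted p = 0.426). In these lists 5 of 10, 3 of 12, 2 of 13 and 3 of 6 members had an unadjusted p under 0.05, against 15.7% of all tested probe sets. Differences above 0 were 13752 of 27022 over all tested probe sets.

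Among the 7 genes whose brightest probe set did not part the mice, all 21 pairs were positively correlated over the 36 arrays. Pearson's r had a median of 0.43 and ran from 0.03 for H2-Ob with Cd74 to 0.87 for H2-Aa with Cd74, and 12 pairs passed a permutation test adjusted over the 21 pairs. Over all pairs of 12427 genes the median r was 0.004 and 6.71% had an r at least as high as the weakest of those 12, at 0.43. Over the pairs of the 1536 genes at least as bright as the dimmest of the 7, these were 0.08 and 18.3%. Positive pairs made up 50.6% of all gene pairs and 57.6% of the pairs of these bright genes. For H2-Aa with Cd74 Spearman's rho was 0.88, r was 0.85 without the 2 arrays farthest from the median, and both permutation p-values were 1e-05, the smallest the permutations can give. After quantile normalization r of this pair was 0.44. H2-Ab1 with H2-DMa had r = 0.71 and rho = 0.73 (permutation p adjusted over the 21 pairs 0.00021 and 0.000105), and 0.73 without the 2 farthest arrays. H2-Ab1 with H2-DMb2 had r = 0.61 (rho = 0.60) and H2-DMa with H2-Oa had r = 0.60 (rho = 0.52), each also past the threshold. The 21 values share the same arrays and the same spleens. With group and profile set means taken out 15 pairs passed, in the 18 ART arrays alone 6 and in the 18 NON arrays alone 5.

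H2-Ea and H2-Eb1 were correlated with other members within the high and the low set, since a value over all arrays would mostly reflect the sets. Among the 26 high mice 12 of 15 pairs with H2-Ea or H2-Eb1 passed the permutation test adjusted over the 15 pairs, with a median r of 0.62. The share of other gene pairs that would pass in these 26 mice was not computed, so the count cannot be called particular to class II. H2-Ea with H2-Eb1 had r = 0.94 (rho = 0.93), H2-Ea with H2-Aa r = 0.88 and H2-Ea with Cd74 r = 0.79. Among the 10 low mice 0 of 15 passed, with a median r of 0.16, and H2-Ea with H2-Eb1 had r = 0.75 (rho = 0.45, permutation p = 0.0169, adjusted p = 0.253). The difference between the sets was not tested, and 10 mice give less precision than 26.

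**Figure D5:**
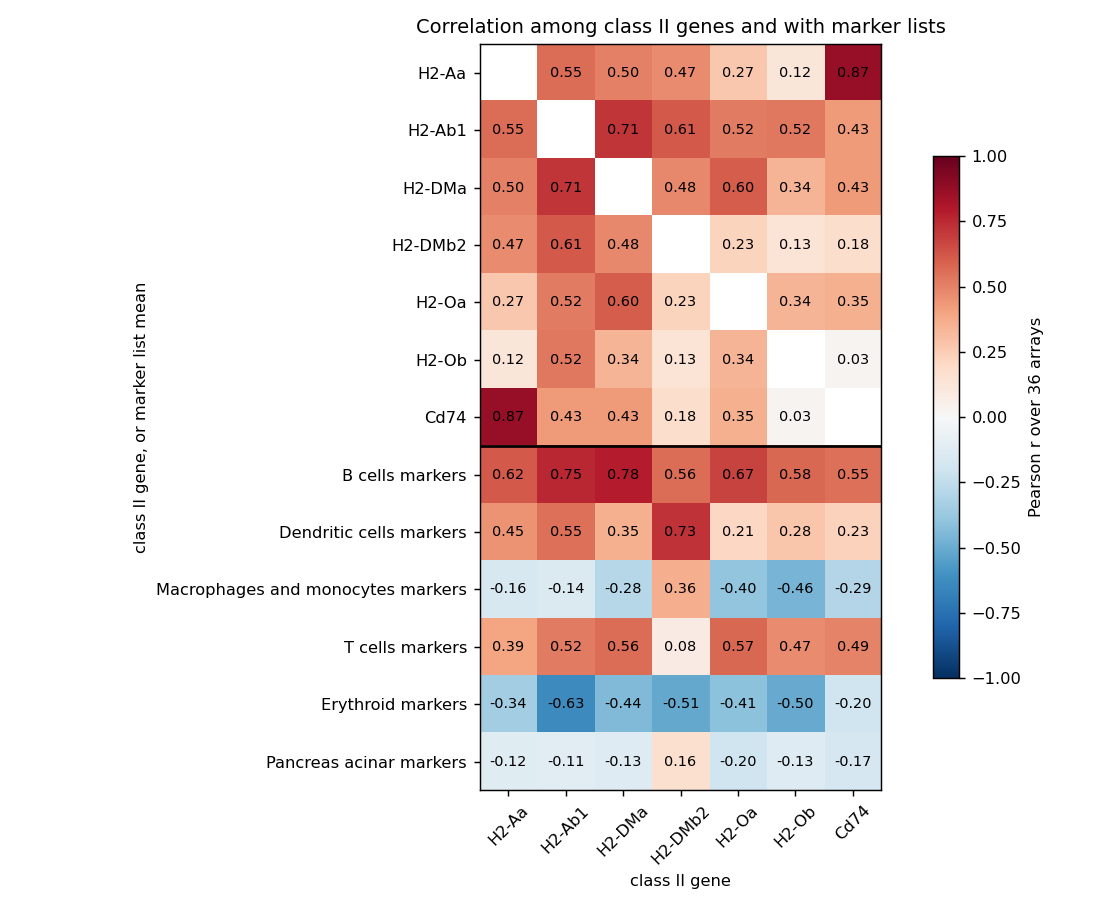
Pearson's r over the 36 arrays between the brightest probe sets of 7 class II genes (upper block) and between each gene and the mean of a cell type's markers (lower block), with colour and number giving r. H2-Aa with Cd74 is the strongest pair at 0.87, every class II gene is positive with the B cell markers, at 0.55 to 0.78, and the erythroid row is negative throughout.

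The class II genes moved with the B cell markers of the same spleens, and 6 of the 7 moved with the T cell markers too. Over 36 arrays r with the B cell marker mean was 0.78 for H2-DMa, 0.75 for H2-Ab1, 0.67 for H2-Oa, 0.62 for H2-Aa, 0.58 for H2-Ob, 0.56 for H2-DMb2 and 0.55 for Cd74, all 7 past the permutation test adjusted over 42 such relations. Spearman's rho was 0.54 to 0.78, and r was 0.60 to 0.78 with group and profile set means taken out. With the T cell markers, of which 6 of 8 were measured, 6 of the 7 genes passed the same test, from 0.39 for H2-Aa to 0.57 for H2-Oa, and H2-DMb2 had r = 0.08, or 0.61 with group and profile set means taken out. H2-DMb2 had r = 0.73 with the dendritic cell markers, of which 8 of 9 were measured (rho = 0.76, permutation p adjusted over 42 relations 0.00014). H2-Ab1 (r = 0.55) and H2-Aa (r = 0.45) passed with them too, while H2-DMa, H2-Oa, H2-Ob and Cd74 did not. With group and profile set means taken out, r of H2-DMb2 was 0.66 with the dendritic cell markers and 0.75 with the B cell markers. For the other genes r with the dendritic cell markers then ran from 0.45 for Cd74 to 0.68 for H2-Ab1. Dendritic cell markers had mean levels of 9.14 ± 0.18 in ART and 9.02 ± 0.29 in NON spleens (SD, n = 18 each). By profile set the dendritic cell marker mean was 9.26 in P, 8.96 in Q and 9.02 in R. Erythroid markers ran the other way, with r = -0.63 for H2-Ab1 and -0.51 for H2-DMb2, while H2-Aa (-0.34) and Cd74 (-0.20) did not pass. Their mean includes Hba-a1, which at 5.92 was below the filter on low signals. Macrophage and monocyte markers had r = -0.46 with H2-Ob and -0.40 with H2-Oa, the 2 of 7 that passed there. The share of other genes that would pass with these marker means was not computed, so the counts of genes passing cannot be called particular to class II. The part of cell numbers in the class II levels was not tested. With the B cell marker mean as a covariate the H2-DMb2 difference was 0.35 (limma adjusted p = 0.0589).

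Likeness to Cd74 was ranked in the same way, by r over 36 arrays among 12427 genes. The 6 genes outside the set most like it were the actin-binding thymosin Tmsb10 (r = 0.93), Shisa5 (0.93), the ribosomal protein Rpl38 (0.93), the translation factor Eef1a1 (0.91), the ribosomal protein Rps15 (0.90) and Tpt1 (0.90). They lie on chromosomes 6, 9, 10, 11 and 14, and each is among the bright probe sets, with mean levels of 14.26 to 15.18. The least like it were the ATPase Ola1 (-0.81), the ubiquitin ligase subunit Skp2 (-0.77) and Lin54 (-0.75). These correlations are across arrays that share 1 scaling step, and they are given as a description.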

How the data were processed

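Total RNA of individual spleens was isolated with Trizol and, after biotin labelling, put on Affymetrix arrays, per the labels. The authors deposited linear intensity values. MAS5 made them, per the submitters' processing notes, with no version given in the sources used here. Each array has a trimmed mean of 500.002 after 2% of its probe sets are taken off each end, so brightness was scaled by 1 factor per array, and bright probe sets may share its error. Values were used as log2(intensity + 16) with no further normalization, which understates changes of dim probe sets. The 64 manufacturer's controls, and probe sets with a mean over 36 arrays below the 40th percentile (6.49), were left out of tests. GEO's platform annotation gave 1 gene for 34945 probe sets, several for 932 and none for 9160, and 34741 of the first matched the reference table (GRCm38.p6).

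Groups were compared with limma 3.58.1 in R 4.3.3 (lmFit, eBayes with trend, two-sided), and correlations with 100000 permutations, two-sided, in scipy 1.17.1 under Python 3.11.15 with numpy 2.4.6, pandas 2.3.3 and matplotlib 3.10.9. Each gene was represented by its single-gene probe set with the highest mean. All members were named, as were up to 4 genes per list by smallest p, and the 6 genes most and the 3 least like H2-Eb1 and like Cd74. The members and lists were chosen with earlier results of these data known. The fits and the rule for high and low sets were tested on simulated data. The number of arrays limits the precision.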

Additional observations from a re-analysis of the deposited data

How the results depend on the processing

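The 10 mice low for H2-Eb1 were the same with a pseudocount of 1 or 64, after quantile normalization, with a gap limit of 0.5 and with at least 3 arrays on each side, and the 9 of them that remained were the same without the 3 spleens with pancreas markers (an alternative chosen after seeing the data). A gap limit of 0.5 raised the class II probe sets that part the mice to 5, against 3. Of 99 recomputed differences 93 kept their direction and side of the threshold, 2 passed newly and 4 reversed. With the B cell covariate H2-Aa was -0.0161, H2-DMa -0.0586, H2-Oa -0.0495 and H2-Ob -0.0397, and other probe sets gave -0.107 for H2-Aa and -0.00792 for H2-DMa. Leaving out 1 array gave -0.00471 to 0.064 for H2-DMa, -0.0131 to 0.0491 for H2-Oa and -0.00461 to 0.0774 for H2-Ob. The count of all probe sets called, 13, was 0 without the filter, without the trend or with either spike-in division as a block, 1 after quantile normalization, 21 with the filter at the 60th percentile, 75 with the B cell covariate, 236 without the pancreas arrays, and 0 to 389 with 1 array left out. That of class II, 0, was 2 without the pancreas arrays and 0 to 2 with 1 array left out. With the replicate number as a block, 369 probe sets and 2 of class II were called, with H2-DMb2 at 0.41 (limma adjusted p = 0.0190). Nothing in the labels ties ART and NON samples of 1 number: their deviations correlated with a median of 0.15, against -0.03 for different numbers, over 0.1 in 11 of 18 pairs, and 2 of 18 correlated best with their own number. The correlated pairs, 12, were 6 in ART and 5 in NON arrays alone. The limit on the actin ratio removed 0 arrays and gave no value. The cause of these changes was not tested.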
